A study of Homo sapiens with 18 samples.

Results

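The 10 genes described here carry the transcriptional end of the Hippo pathway and some of its density-related regulators: YAP1, WWTR1, TEAD1, TEAD2, TEAD3, TEAD4, AMOTL2, ANKRD1, LATS2 and AJUBA. They were chosen by symbol as rows of the deposited expression table, which has 37550 rows, and all 10 were among the 17033 genes that passed the filter on low values. Their transcript levels were followed through 9 groups of H1 cells, an established human pluripotent stem cell line, with 2 libraries per group that the series design calls biological replicates. The labels tie the cells to 3 plating densities, so the levels are read beside these. All levels are in TPM, transcript numbers scaled for transcript length and library total, so that levels of different genes can be compared within a library. The TPM values keep no read numbers, so the depth behind each value is unknown.

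The undifferentiated cells (hPSC) were collected at day 0 from mTeSR Plus medium, and their plating density is not used here. All other cells, wild-type like the hPSC, spent day 1 in a definitive ectoderm medium that blocks TGF-beta, BMP and WNT signals and holds the MEK inhibitor trametinib at 250 nM. They were then detached as single cells and replated with thiazovivin at 1 µM, a kinase inhibitor that helps single cells survive. Anterior neural ectoderm (aNE) was made on day 2 with the WNT secretion blocker C59 at 1 µM. Posterior neural ectoderm (pNE) was made on day 2 with TTNPB, a retinoid, at 50 nM, XAV939, which blocks tankyrases, at 1 µM and the growth factor FGF2 at 20 ng/mL. Both day-2 media also held the TGF-beta receptor inhibitor A8301 at 1 µM and the BMP receptor inhibitor LDN193189. Both populations were then grown until day 4, either in forebrain medium, which gave the groups aNE_T and pNE_T, or in midbrain medium (groups aNE_M, pNE_M) or hindbrain medium (groups aNE_H, pNE_H). The full recipes of the midbrain and hindbrain media are not used here. Cells collected at day 2 were replated at 37500 cells per cm2, aNE cells meant for day 4 at 75000 cells per cm2 and pNE cells meant for day 4 at 150000 cells per cm2. The labels state the higher densities with the forebrain fate named for aNE and the hindbrain fate named for pNE, and they are taken here to hold for all 3 media. Density was therefore equal between the populations at day 2 and between media within a population, but it changed together with origin at day 4 and together with time from day 2 to day 4. Cell numbers at collection are not used here.

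In the Hippo pathway, a chain of kinases ending in LATS1 and LATS2 phosphorylates the coactivators YAP (YAP1) and TAZ (WWTR1) and keeps them out of the nucleus. When the chain is quiet, as in sparse or stretched cells, YAP and TAZ enter the nucleus and bind the TEAD transcription factors, which contact DNA and switch on genes such as ANKRD1, CCN1 and CCN2. Crowding, cell junctions and loss of actin tension turn the chain on, and some target genes, LATS2 and AMOTL2 among them, encode proteins that hold YAP back. Transcript levels of YAP1, WWTR1 and the TEAD genes do not show where in the cell their proteins are.

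A library had 19239 to 21235 genes above 0 TPM, and mitochondrial genes took 0.960% to 3.74% of the TPM. Replicates correlated across genes with r of 0.982 to 0.987. The groups are named here by medium rather than by fate, and the markers went only part of the way with these names. The 8 forebrain markers summed to 1063 to 1098 TPM in aNE_T and 46.3 to 50.1 TPM in pNE_T. The 7 midbrain markers summed to 346 to 354 TPM in aNE_M and 38.8 to 40.2 TPM in pNE_M, where EN1 and CNPY1 were listed at 0. The 9 hindbrain markers summed to 893 to 1032 TPM in pNE_H and 94.0 to 99.99 TPM in aNE_H, where 6 of them were listed at 0. They were also high in the other pNE-derived groups, at 602 to 646 TPM in pNE_T and 756 to 761 TPM in pNE_M.

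YAP1, on chromosome 11 (102110447 to 102233424 in RefSeq GRCh38.p14), was the more abundant coactivator in every library. It stood at 99.5 and 101 TPM in the hPSC libraries, at 65.5 and 65.1 TPM in those of aNE and at 99.7 and 103 TPM in those of pNE. At day 4 the aNE-derived cells had 138 and 133 TPM in forebrain medium, 144 and 160.5 TPM in midbrain medium and 168 and 152 TPM in hindbrain medium. The pNE-derived cells had 163 and 149 TPM in forebrain medium, 215 and 209 TPM in midbrain medium and 213 and 219 TPM in hindbrain medium. All 12 day-4 libraries were thus above all 6 earlier ones, and the 2 aNE libraries were the lowest of all. From highest to lowest the group order was pNE_H, pNE_M, aNE_H, pNE_T, aNE_M, aNE_T, pNE, hPSC and aNE. The libraries overlapped between pNE_H and pNE_M, along the run from aNE_H to aNE_M, and between pNE and hPSC. The table also holds 3 YAP1 pseudogenes, none above 0.317 TPM.

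WWTR1, on chromosome 3 (149517235 to 149724788), encodes TAZ, the close relative of YAP, and followed another course. Its level was 12.6 and 13.7 TPM in hPSC, 11.3 and 13.9 TPM in aNE and 19.9 and 22.9 TPM in pNE. Among aNE-derived cells it was 25.3 and 30.9 TPM in forebrain medium, 7.81 and 8.36 TPM in midbrain medium and 12.5 and 9.04 TPM in hindbrain medium. Among pNE-derived cells it was 33.9 and 36.5 TPM, 14.5 and 13.9 TPM, and 20.6 and 20.4 TPM in the same order of media. Forebrain medium gave the highest WWTR1 of each origin, where YAP1 was at its lowest day-4 level. The ratio of YAP1 to WWTR1 TPM accordingly ran from 4.45 ± 0.50 (SD, n = 2) in pNE_T to 18.8 ± 0.49 in aNE_M.

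The 4 TEAD genes encode the DNA-binding partners of YAP and TAZ, and TEAD2 was the most abundant of them in every group. TEAD2, on chromosome 19 (49340595 to 49362416), was at 163 and 173 TPM in hPSC, 229 and 221 TPM in aNE and 162 and 163 TPM in pNE. Its aNE-derived libraries held 195 and 204 TPM in forebrain medium, 221 and 223 TPM in midbrain medium and 193 and 195 TPM in hindbrain medium. Its pNE-derived libraries held 141 and 137 TPM, 153 and 162 TPM, and 134 and 131 TPM in these media. Every library of the aNE lineage was above 193 TPM and every library of the pNE lineage below 163 TPM, with no overlap. TEAD2 overlaps CD37 and DKKL1 in the annotation, and whether the quantification used the strand is not stated.

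TEAD1, on chromosome 11 (12674421 to 12944737), and TEAD3, on chromosome 6 (35473597 to 35497079), had a common shape. TEAD1 was at 21.8 and 19.8 TPM in hPSC, 46.0 and 40.5 TPM in aNE, 30.5 and 34.3 TPM in pNE. It peaked in forebrain medium, at 68.7 and 71.4 TPM in aNE_T and 49.5 and 50.1 TPM in pNE_T. In the other media its 8 libraries ran from 20.9 TPM, in aNE_M, to 45.1 TPM, in aNE_H. TEAD3 was at 21.3 and 22.0 TPM in hPSC, 43.9 and 46.7 TPM in aNE and 40.4 and 49.2 TPM in pNE; forebrain medium gave 80.7 and 80.9 TPM in aNE_T and 70.1 and 71.5 TPM in pNE_T. The 4 forebrain-medium libraries were the 4 highest for both genes, and the hPSC libraries were the lowest for TEAD3. Over the 18 libraries TEAD1 and TEAD3 had a Pearson r of 0.937 on the log2(TPM + 1) scale, a description over points that share groups, media and an unknown depth.

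TEAD4, on chromosome 12 (2959397 to 3040676), is known from early embryos, where it acts in the choice of trophectoderm, and it was highest before differentiation. It was at 92.7 and 91.5 TPM in hPSC, 70.9 and 65.4 TPM in aNE and 68.0 and 80.5 TPM in pNE. Among aNE-derived cells it was 56.5 and 45.5 TPM in forebrain, 30.8 and 28.5 TPM in midbrain and 61.5 and 52.8 TPM in hindbrain medium. Among pNE-derived cells it was 56.5 and 57.8 TPM in forebrain, 43.6 and 44.8 TPM in midbrain and 29.7 and 29.6 TPM in hindbrain medium. The lowest medium for TEAD4 was thus the midbrain medium in one lineage and the hindbrain medium in the other. TEAD4 made up 30.5% ± 0.84 (SD, n = 2) of the summed TEAD transcripts in hPSC and 9.59% ± 0.73 in aNE_M. TEAD2 made up 43.8% ± 0.85 in pNE_T and 71.8% ± 1.0 in aNE_M, the lowest and highest of the 9 group means. The sum of the 4 genes was highest in aNE_T, at 402 ± 0.59 TPM, and lowest in pNE_H, at 224 ± 3.7 TPM.

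**Figure D1:**
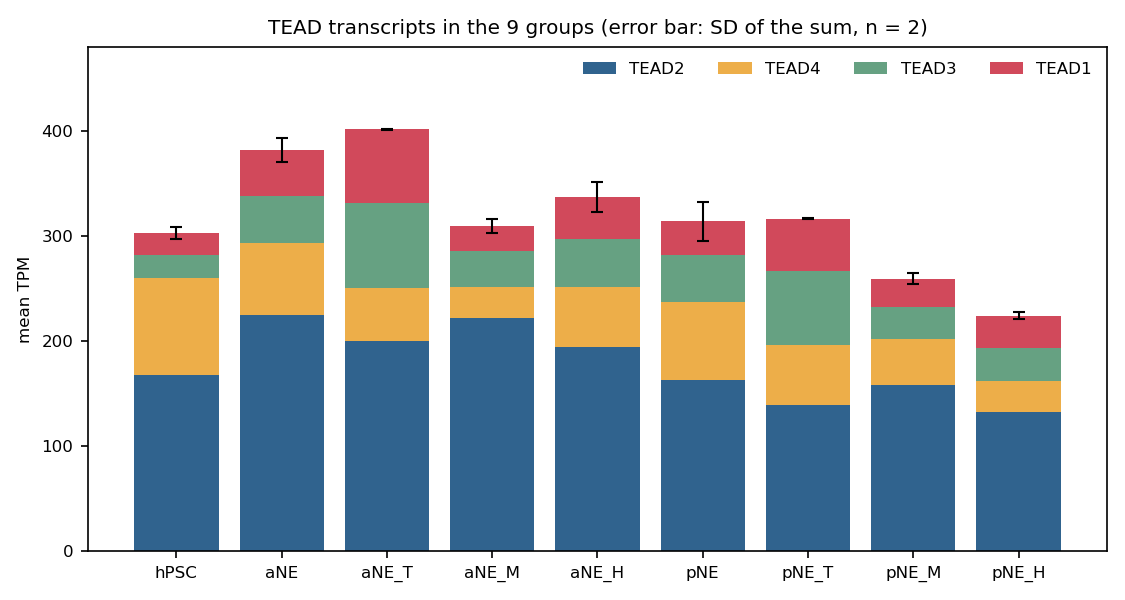
Bars stack the mean TPM of TEAD2, TEAD4, TEAD3 and TEAD1 in each of the 9 groups (2 libraries each), with the error bar giving the SD of the summed TPM. TEAD2 is the tallest segment throughout, TEAD4 is largest in hPSC, and the sum runs from 224 TPM in pNE_H to 402 TPM in aNE_T.

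ANKRD1, AMOTL2, LATS2 and AJUBA are, of the 10, the genes nearest to the output and the feedback of the pathway. TEAD factors bind a short core that reads GGAATG in its common form. This core was searched on both strands of RefSeq promoter windows (GRCh38.p14) that reach from 250 bases before a start site to 50 bases after it. It was found in 4928 of 35116 windows (14%), in windows of 4567 of 27305 genes (16.7%), and in windows of 5 of the 8 of the 10 genes that have one: ANKRD1, AMOTL2, AJUBA, LATS2 and YAP1. The table used has no window for TEAD1 and TEAD4. The matches are shown because 3 of these genes, ANKRD1, AMOTL2 and AJUBA, had the widest ranges, 5′ to 3′ on the strand that carries the match, with 12 bases on either side and the core in capitals.

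ANKRD1, first match: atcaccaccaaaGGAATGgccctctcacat

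ANKRD1, second match: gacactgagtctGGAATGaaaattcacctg

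AMOTL2: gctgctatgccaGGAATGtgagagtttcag

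AJUBA: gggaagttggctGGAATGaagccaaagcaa

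LATS2: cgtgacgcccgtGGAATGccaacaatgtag

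YAP1: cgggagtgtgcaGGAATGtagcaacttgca

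The ANKRD1 matches lay at chr10:90921290-90921319 and chr10:90921198-90921227 on the minus strand, the strand of the gene, with their cores 220 and 128 bases before the start. The first lay outside GENCODE exons and the second inside one. The AMOTL2 match, at chr3:134374499-134374528 on the plus strand and so opposite to the gene, had its core 69 bases before an inner start, within the gene and an exon. The AJUBA match, at chr14:22976884-22976913 on the minus strand, likewise had its core 59 bases before an inner start, within the gene and an exon. The LATS2 match, at chr13:21061560-21061589 on the minus strand, had its core begin at base 10 of the RefSeq transcript. The YAP1 match, at chr11:102110273-102110302 on the plus strand, had its core 162 bases before the start. A match is a run of letters and not a measured binding site.

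ANKRD1, on chromosome 10 (90912096 to 90921087), encodes an ankyrin repeat protein first studied in heart muscle and is a much-used readout of YAP and TAZ. It was listed at 0 in both hPSC libraries and stood at 33.8 and 41.2 TPM in aNE and 15.1 and 13.0 TPM in pNE. In aNE-derived cells it was 126 and 122 TPM in forebrain, 0.491 and 0.306 TPM in midbrain and 78.4 and 83.7 TPM in hindbrain medium. In pNE-derived cells it was 375 and 359 TPM in forebrain, 10.6 and 7.35 TPM in midbrain and 74.1 and 127 TPM in hindbrain medium. The pNE_T libraries were the highest, midbrain medium gave the lowest differentiated libraries, and neighbours overlapped only from aNE_T through pNE_H to aNE_H. No other gene of the 10 had so wide a range.

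AMOTL2, on chromosome 3 (134355345 to 134375417), encodes an angiomotin family scaffold that ties YAP to cell junctions. It was at 20.7 and 20.1 TPM in hPSC, 96.8 and 95.9 TPM in aNE and 71.8 and 87.9 TPM in pNE. It reached 244 and 224 TPM in aNE_T, 42.5 and 35.9 TPM in aNE_M and 136 and 116 TPM in aNE_H. It reached 150.4 and 141 TPM in pNE_T, 106 and 88.7 TPM in pNE_M and 47.2 and 51.5 TPM in pNE_H. The hPSC libraries were the lowest, the aNE_T libraries the highest, and of the neighbours in rank only pNE_M and aNE overlapped.

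AJUBA, on chromosome 14 (22971177 to 22982551), encodes a LIM protein that binds LATS kinases at junctions under tension. It was at 18.4 and 21.1 TPM in hPSC, 157 and 151 TPM in aNE and 121 and 127 TPM in pNE. Day-4 levels were 189.7 and 189 TPM in aNE_T, 34.6 and 36.5 TPM in aNE_M and 108 and 95.0 TPM in aNE_H. They were 212 and 218 TPM in pNE_T, 104 and 100.0 TPM in pNE_M and 68.2 and 72.0 TPM in pNE_H. As for AMOTL2, both forebrain-medium groups were above all others and hPSC was below all others, and only pNE_M and aNE_H overlapped among neighbours. LATS2, on chromosome 13 (20973036 to 21061586), encodes the kinase that phosphorylates YAP and TAZ and varied least of these 4 genes, from a mean of 10.6 ± 0.34 TPM (SD, n = 2) in hPSC to 23.7 ± 4.6 TPM in pNE_T. Its replicates overlapped between most neighbouring groups.

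**Figure D2:**
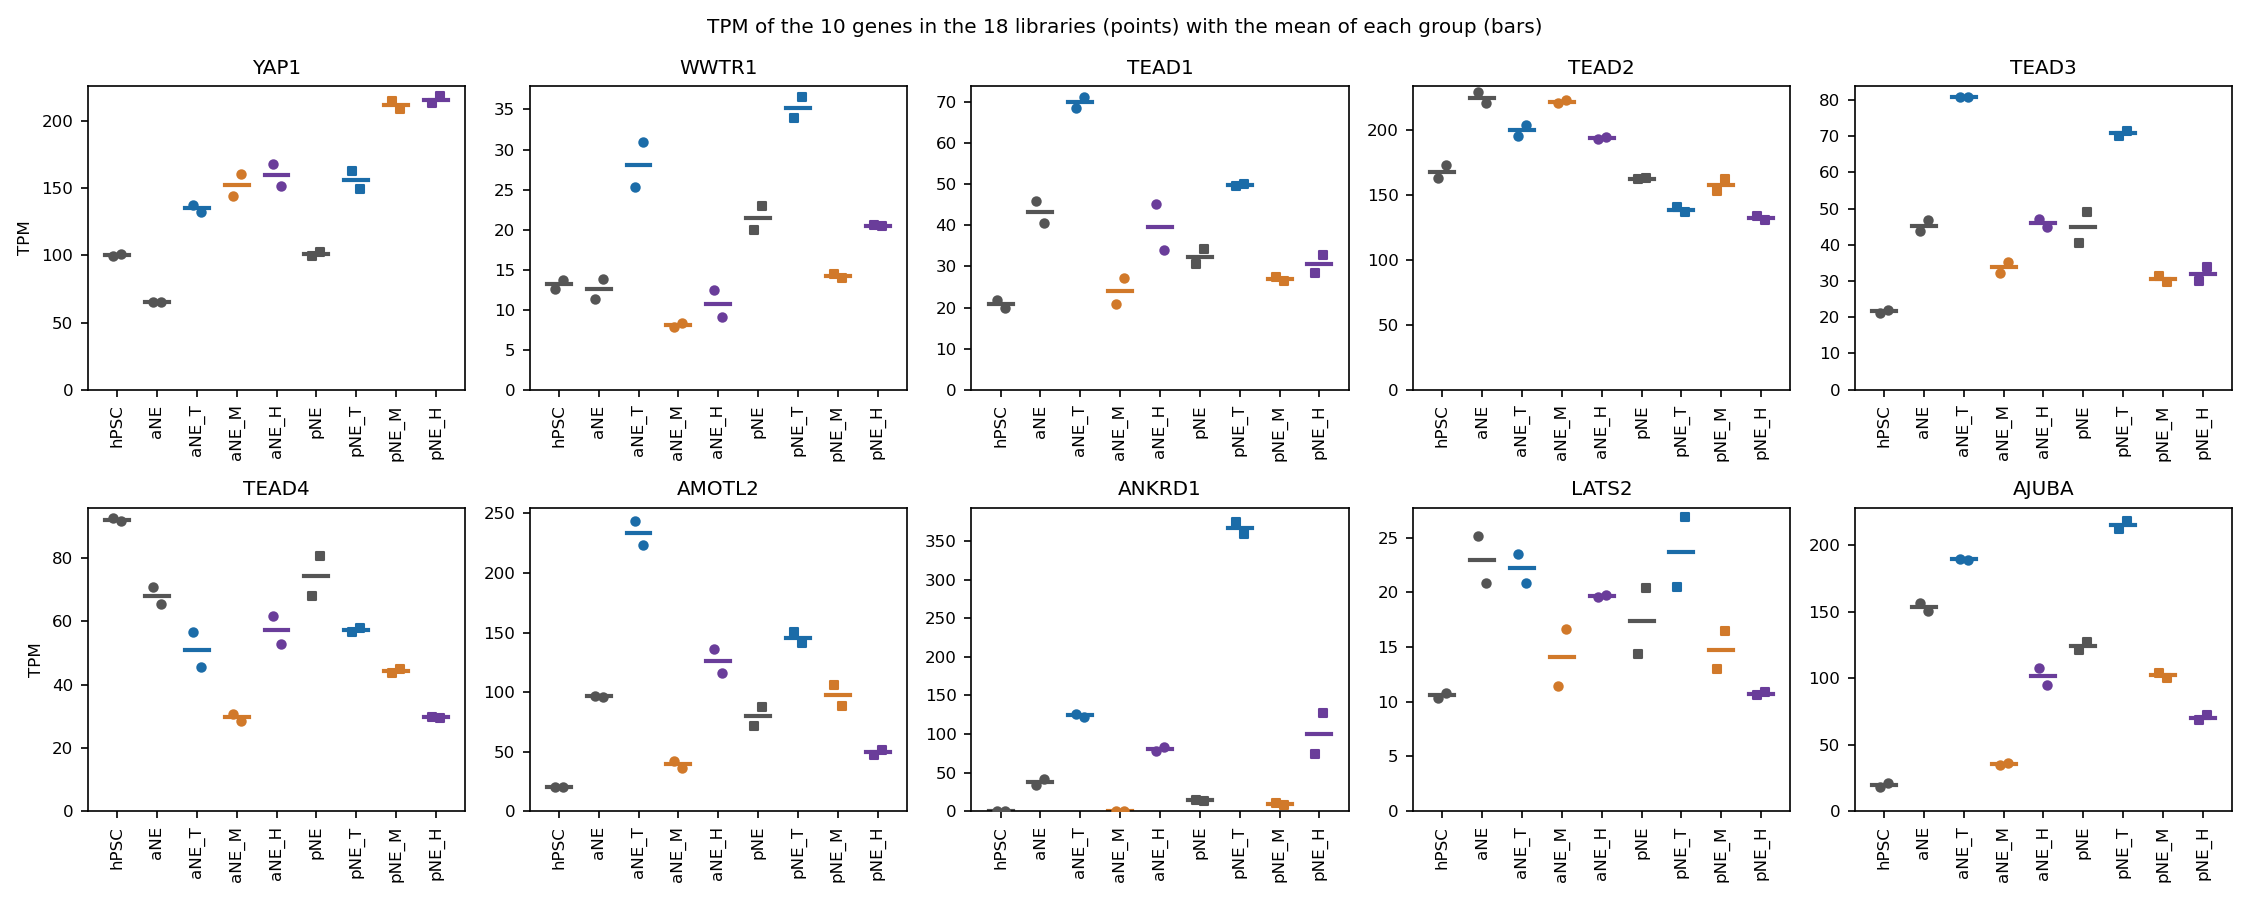
Each panel shows 1 gene, with the TPM of the 18 libraries as points and the mean of each group of 2 as a bar, on an axis that starts at 0. Blue marks forebrain, orange midbrain and purple hindbrain medium, circles the aNE and squares the pNE lineage (hPSC as circles), and ANKRD1 runs from 0 in hPSC to 375 TPM in pNE_T.

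In day-2 neural ectoderm the junction and output genes were higher than in undifferentiated cells, while neither coactivator was called. Values were compared as log2(TPM + 1) with limma over all 17033 genes, and a gene was called at an adjusted p under 0.05 and a log2 difference of at least 1. In aNE against hPSC, 6 of the 10 genes were called, all higher, against 13.5% of all tested genes. In pNE against the same hPSC libraries, 4 of the 10 were called, all higher, against 12.9% of all genes, so that 10 of the 20 values were called against 13.2% over all genes. In aNE, AJUBA rose by 2.90 ± 0.08 (SE, limma adjusted p = 1.82e-11), and its rise in pNE was 2.60 ± 0.08 (adjusted p = 5.3e-11). AMOTL2 rose by 2.19 ± 0.12 (adjusted p = 1.74e-08) in the first comparison and 1.91 ± 0.12 (adjusted p = 6.22e-08) in the second. ANKRD1 rose in both (adjusted p = 8.35e-10 and 1.38e-08), with no fold given because hPSC was listed at 0.

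TEAD3 rose by 1.03 ± 0.09 in aNE and 1.01 ± 0.09 in pNE, and TEAD1 (1.02 ± 0.14) and LATS2 (1.05 ± 0.20) rose in aNE. These 4 calls were close to the fold threshold: under median-ratio scaling and under quantile normalization all 4 were lost, and the calls of the 10 genes in both comparisons went from 10 to 6. Leaving out 1 library also ended them: hPSC replicate 2 or aNE replicate 1 for TEAD1, aNE replicate 1 for LATS2, aNE replicate 2 for TEAD3 in aNE, and hPSC replicate 1 or pNE replicate 2 for TEAD3 in pNE. YAP1 differed by -0.61 ± 0.07 in aNE (adjusted p = 1.37e-05), while its pNE libraries lay 0.01 ± 0.07 above hPSC (adjusted p = 0.906). TEAD4 differed by -0.43 ± 0.11 (adjusted p = 0.00643) and -0.31 ± 0.11 (adjusted p = 0.0369), below the fold threshold. In a bulk sample, fewer cells of a type and less RNA per cell cannot be told apart. The 8 pluripotency markers summed to 5926 to 5989 TPM in hPSC and 858 to 968 TPM at day 2, and their part in these differences was not tested. The day-2 cells had also been replated at 37500 cells per cm2 with thiazovivin, which hPSC did not receive. Replating, density, thiazovivin, medium and time therefore cannot be told apart in these comparisons.

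At day 2, where aNE and pNE were plated at the same density, 1 of the 10 genes was called, against 3.85% of all genes. ANKRD1 was lower in pNE by 1.35 ± 0.21 on the log2 scale (limma, difference -1.35, adjusted p = 0.000665), with no overlap between the libraries. With the fit limited to these 4 libraries the call was lost (adjusted p = 0.0509). YAP1 was 0.62 ± 0.07 higher in pNE (adjusted p = 3.91e-05), WWTR1 0.72 ± 0.15 higher (adjusted p = 0.00482), and TEAD2 differed by -0.47 ± 0.05 (adjusted p = 5.89e-05), all under the fold threshold. AJUBA differed by -0.31 ± 0.08 (adjusted p = 0.0177). TEAD3 differed by -0.02, with a 95% interval of -0.23 to 0.18. The 8 forebrain markers summed to 659 to 685 TPM in aNE against 111 to 132 TPM in pNE, and the 9 hindbrain markers to 2.87 to 3.0 TPM against 368 to 428 TPM. Their part in the ANKRD1 difference was not tested.

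The media were compared within a lineage, where plating density was taken to be the same on both sides. The labels state it only with the forebrain fate for aNE and the hindbrain fate for pNE. Over the 6 comparisons, which share groups among them, 20 of 60 values for the 10 genes were called, 4 higher and 16 lower, against 6.87% over all genes. In aNE-derived cells at 75000 cells per cm2, midbrain medium against forebrain medium gave 6 calls of 10, all lower, against 10.1% of all genes. ANKRD1 fell by 6.49 ± 0.21 (SE, limma adjusted p = 9.68e-11). The ratio of its mean TPM, taken without the pseudocount, was 311. That ratio rests on aNE_M libraries at 0.491 and 0.306 TPM, near the floor, so its size is uncertain. AMOTL2 fell by 2.55 ± 0.12 (adjusted p = 3.34e-09) and AJUBA by 2.38 ± 0.08 (adjusted p = 9.94e-11). The coactivator gene WWTR1 fell by 1.67 ± 0.15 (adjusted p = 1.48e-06), TEAD1 by 1.52 ± 0.14 (adjusted p = 2.47e-06) and TEAD3 by 1.24 ± 0.09 (adjusted p = 4.07e-07). For YAP1 the difference of 0.17 ± 0.07 had an adjusted p of 0.0748 and was not called.

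In pNE-derived cells at 150000 cells per cm2, midbrain against forebrain medium gave 4 calls of 10, all lower, against 8.6% of all genes. ANKRD1 fell by 5.23 ± 0.21 (limma adjusted p = 1.14e-09), and the ratio of its mean TPM, taken without the pseudocount, was 40.9. WWTR1 fell by 1.25 ± 0.15 (adjusted p = 2.57e-05), TEAD3 by 1.18 ± 0.09 (adjusted p = 7.84e-07) and AJUBA by 1.07 ± 0.08 (adjusted p = 2.99e-07). AMOTL2 differed by -0.58 ± 0.12 (adjusted p = 0.00243), under the fold threshold. YAP1 was 0.44 ± 0.07 higher (adjusted p = 0.000292), also under it.

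Hindbrain medium against forebrain medium called 1 of 10 genes in aNE-derived cells, against 6.6% of all genes, and 5 of 10 in pNE-derived cells, against 5.03%. The 1 gene in aNE-derived cells was WWTR1, which fell by 1.32 ± 0.15 (limma adjusted p = 2.57e-05), and AJUBA (-0.90) and AMOTL2 (-0.89) lay just under the fold threshold there. In pNE-derived cells ANKRD1 fell by 1.91 ± 0.21 (adjusted p = 3.05e-05), AJUBA by 1.60 ± 0.08 (adjusted p = 3.06e-08) and AMOTL2 by 1.54 ± 0.12 (adjusted p = 1.6e-06). TEAD3 fell by 1.12 ± 0.09 and LATS2 by 1.06 ± 0.20. With only the compared libraries in the fit, ANKRD1 (adjusted p = 0.0792) and LATS2 (adjusted p = 0.077) lost this call. LATS2 also lost it under quantile normalization and without pNE_T replicate 2 (-0.87), the higher of the 2 libraries.

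Hindbrain medium was also set against midbrain medium. In aNE-derived cells 3 of 10 genes were called, all higher, against 4.92% of all genes: ANKRD1 by 5.88 ± 0.21 (limma adjusted p = 1.34e-09), AMOTL2 by 1.66 ± 0.12 (adjusted p = 5.73e-07) and AJUBA by 1.48 ± 0.08 (adjusted p = 2.63e-08). In pNE-derived cells ANKRD1 alone was called of the 10, higher by 3.32 ± 0.21 (adjusted p = 1.59e-07), against 5.99% of all genes. There AMOTL2 differed by -0.96 ± 0.12 (adjusted p = 7.32e-05) and AJUBA by -0.54 ± 0.08 (adjusted p = 0.000252), so ANKRD1 and the 2 junction genes had opposite signs. TEAD4 was 0.92 ± 0.11 higher in aNE_H than in aNE_M and differed by -0.56 ± 0.11 between pNE_H and pNE_M, neither past the fold threshold.

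**Figure D3:**
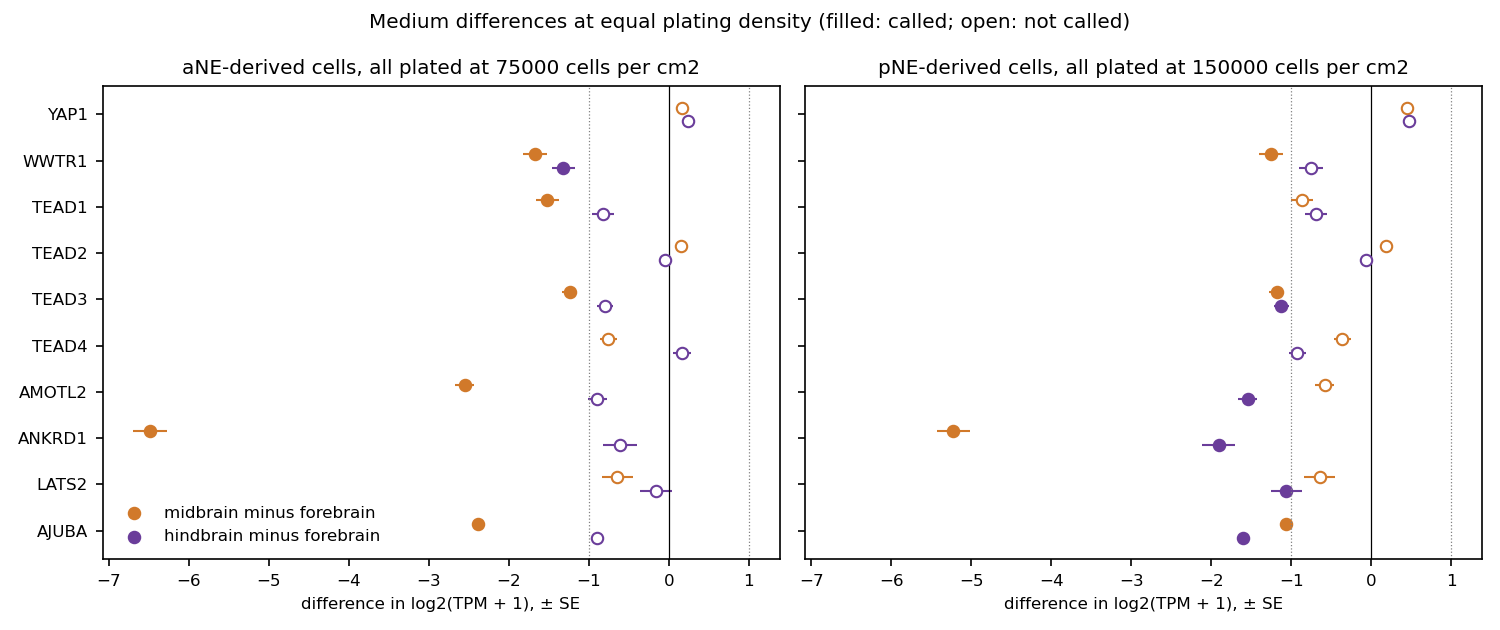
Points give the difference in log2(TPM + 1) of midbrain (orange) and hindbrain (purple) medium from forebrain medium for the 10 genes, with the SE from limma, for aNE-derived cells (left) and pNE-derived cells (right). Filled points passed both thresholds, and all of them lie at or below -1.06, down to -6.49 for ANKRD1 in aNE-derived cells.

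Markers of other cell types differed between the same media. The 10 mesendoderm markers summed to 98.6 to 118 TPM in aNE_M, where MIXL1 was at 86.5 TPM and EOMES at 16.5 TPM and SOX17 was listed at 0, against 6.20 to 6.24 TPM in aNE_T (SOX17 and HAND1 at 0) and 5.81 to 7.64 TPM in aNE_H. Of the 10, 3 were over 1 TPM in aNE_M. In pNE_M they summed to 21.6 to 22.2 TPM. Of the 8 tested, MIXL1, EOMES and TBXT were called higher and GSC lower in aNE_M against aNE_T (10.1% of all genes called). In pNE_M against pNE_T, MIXL1, HAND1 and TBXT were called higher and FOXA2 lower (8.6%). The 7 neural crest markers summed to 139 to 150.3 TPM in aNE_M, with PAX3 at 125 TPM, to 108 to 115 TPM in aNE_H, 83.0 to 96.7 TPM in pNE_M and 44.7 to 46.5 TPM in pNE_H, against 28.2 to 29 TPM in aNE_T and 24.7 to 25.6 TPM in pNE_T. In aNE_M against aNE_T, PAX3 and TFAP2B were called higher and ETS1 lower, and the median difference of the 7 was 0.05. The summed TPM of the 10 pan-neural markers went the other way, at 1739 to 1784 TPM in aNE_T and 517 to 555 TPM in aNE_M, and at 1188 to 1194 TPM in pNE_T and 576 to 625 TPM in pNE_M. In midbrain against forebrain medium 9 pan-neural markers were called lower and 0 higher in aNE-derived cells (10.1% of all genes called). In pNE-derived cells 5 were called lower and 1 higher (8.6%). Hindbrain medium had low pan-neural sums too, at 534 to 613 TPM in aNE_H and 481 to 498 TPM in pNE_H. Against forebrain medium, 10 were called lower in aNE_H (6.6% of all genes called) and 7 in pNE_H (5.03%), with 0 higher in either. The part of all these markers in the differences of the 10 genes between media was not tested.

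Set against density, the spread within a density was wide for the output genes. Over the 6 libraries at 75000 cells per cm2 ANKRD1 ran from 0.306 TPM through a median of 81.0 TPM to 126 TPM, and over the 6 at 150000 cells per cm2 from 7.35 TPM through 100.5 TPM to 375 TPM. The 4 libraries at 37500 cells per cm2 lay between 13.0 and 41.2 TPM, inside both ranges. AMOTL2 spanned 35.9 to 244 TPM at the middle density and AJUBA 34.6 to 189.7 TPM, again around their day-2 levels. YAP1 did not follow this pattern, at 65.1 to 103 TPM at the lowest density, 133 to 168 TPM at the middle and 149 to 219 TPM at the highest. Nor did TEAD4, at 65.4 to 80.5 TPM, 28.5 to 61.5 TPM and 29.6 to 57.8 TPM in the same order. TEAD2 was at 162 to 229 TPM at the lowest density. It was at 193 to 223 TPM at the middle and 131 to 162 TPM at the highest, with no overlap between these. Time changed with density between day 2 and day 4, and origin between the 2 higher densities, so these cannot be told apart for YAP1, TEAD4 and TEAD2.

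**Figure D4:**
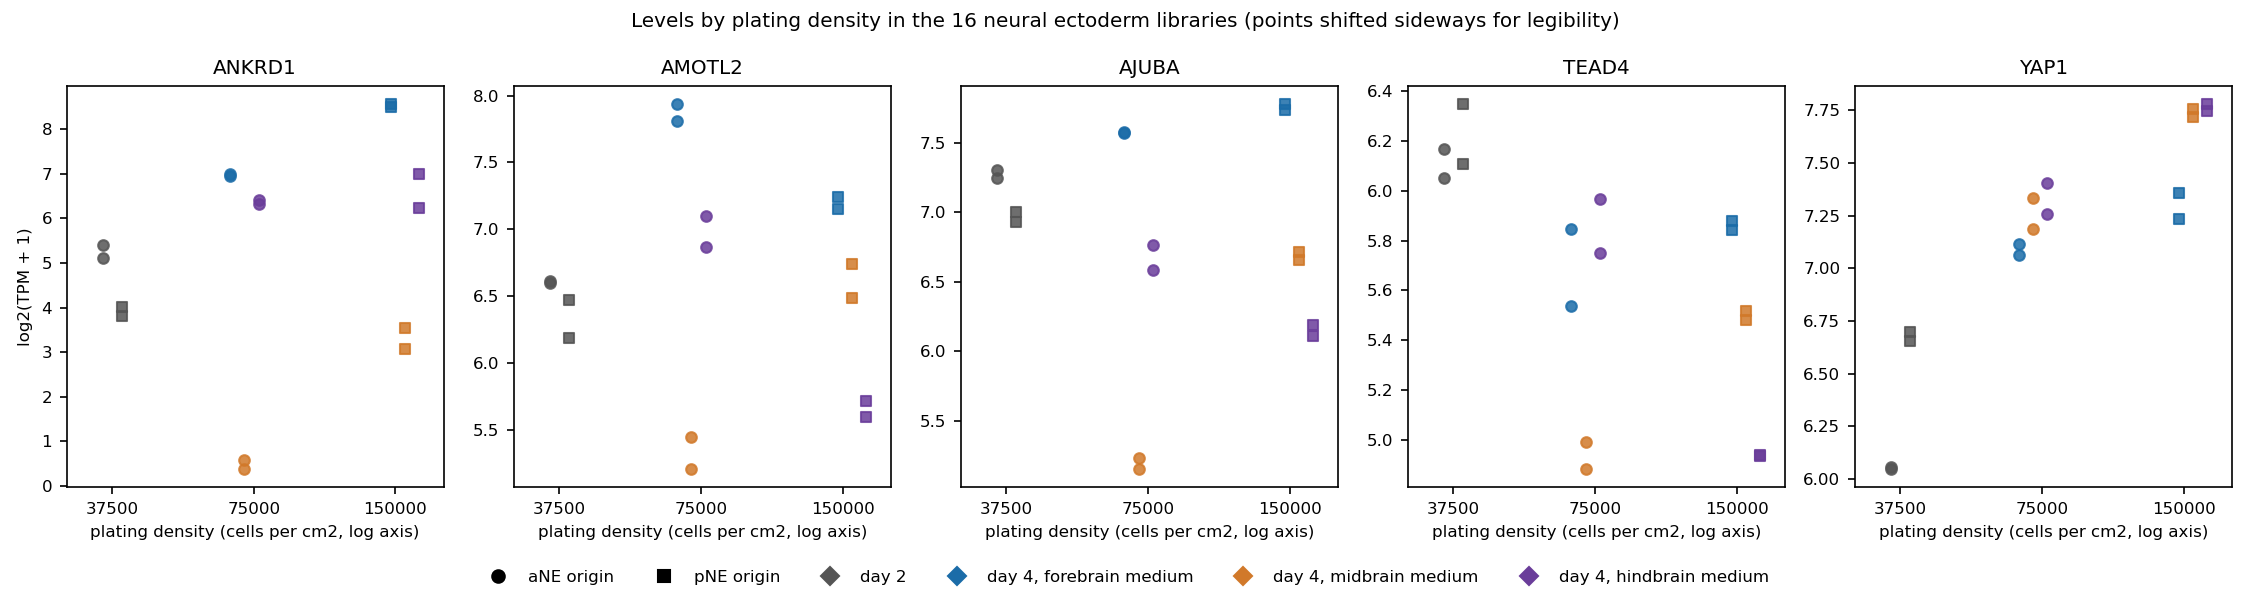
The log2(TPM + 1) level of 5 genes in the 16 neural ectoderm libraries is plotted against plating density on a log axis, with points shifted sideways for legibility. Day-2 libraries at 37500 cells per cm2 lie within the spread of the day-4 libraries for ANKRD1, AMOTL2 and AJUBA, while YAP1 is higher and TEAD4 lower in all 12 day-4 libraries.

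Gene by gene, the variation among the 12 day-4 libraries was split into sums of squares. For ANKRD1, 87.5% of it lay between media, 8.22% between the lineages, which differ in density too, and 3.77% in their interaction. TEAD3 (90.3%), TEAD1 (84.0%), WWTR1 (74.1%), AJUBA (71.2%), AMOTL2 (57.5%) and LATS2 (52.6%) also had most of it between media. TEAD2 had 87.4% and YAP1 52.9% between the lineages, and TEAD4 had 61.5% in the interaction. AMOTL2 had a further 39.5% in the interaction, and LATS2 had the largest residual of the 10, 13.3%. Summed over all tested genes the shares were 39.5% for medium, 27.0% for lineage, 16.1% for interaction and 17.4% for the residual.

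Between the lineages at day 4, at 150000 against 75000 cells per cm2, each medium was compared separately. Over the 3 media 5 of 30 values for the 10 genes were called, against 6.78% over all genes. In forebrain medium 1 of 10 genes was called, against 7.77% of all genes: ANKRD1 was 1.56 ± 0.21 higher in pNE_T (limma adjusted p = 0.000105). AMOTL2 differed there by -0.68 ± 0.12 (adjusted p = 0.000996), under the fold threshold and opposite in sign. In midbrain medium 3 of 10 were called, all higher in pNE_M, against 5.74% of all genes: ANKRD1 by 2.82 ± 0.21 (adjusted p = 6.22e-07), AJUBA by 1.50 ± 0.08 (adjusted p = 2e-08) and AMOTL2 by 1.29 ± 0.12 (adjusted p = 5.26e-06). In hindbrain medium 1 of 10 was called, against 6.83% of all genes: AMOTL2 fell by 1.33 ± 0.12 (adjusted p = 3.15e-06).

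Hindbrain medium also gave TEAD4 a difference of -0.92 ± 0.11 (limma adjusted p = 3.98e-05) and LATS2 one of -0.82 ± 0.20 (adjusted p = 0.00879), both under the fold threshold. ANKRD1 differed by 0.26 there (95% interval -0.19 to 0.71), and its 2 pNE_H libraries, at 74.1 and 127 TPM, lay on either side of both aNE_H libraries. TEAD2 differed by -0.52, -0.49 and -0.55 in forebrain, midbrain and hindbrain medium, each ± 0.05, and YAP1 by 0.21, 0.48 and 0.43, each ± 0.07. All 6 of these passed the adjusted p (0.048 at most) and none the fold threshold. Both genes had the same sign at day 2, where density was equal.

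Whether the lineage difference at day 4 departed from that at day 2 was tested as an interaction, in which density, medium and time change together and the day-2 libraries are shared. In forebrain medium 1 of 10 genes was called, against 7.14% of all genes, in midbrain medium 3, against 7.02%, and in hindbrain medium 3, against 7.83%, in all 7 of 30 values against 7.33%. ANKRD1 was called in all 3: its lineage difference was -1.35 at day 2 and 1.56, 2.82 and 0.26 in forebrain, midbrain and hindbrain medium. AMOTL2 was called in opposite directions, 1.56 ± 0.17 in midbrain and -1.05 ± 0.17 in hindbrain medium (limma adjusted p = 3e-05 and 0.000763). The latter call was lost without aNE_H replicate 1, pNE replicate 2 or pNE_H replicate 1, at -0.91 to -0.99.

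From day 2 to day 4 YAP1 rose in all 6 comparisons and was called in 5 of the 6. It rose by 1.04 ± 0.07, 1.21 ± 0.07 and 1.28 ± 0.07 in aNE-derived cells in forebrain, midbrain and hindbrain medium and by 1.06 ± 0.07 and 1.09 ± 0.07 in pNE-derived cells in midbrain and hindbrain medium (limma adjusted p of 1.66e-07 or less). In pNE_T it was 0.62 ± 0.07 higher than in pNE (adjusted p = 1.52e-05), under the fold threshold. ANKRD1 rose by 4.61 ± 0.21 in pNE_T (adjusted p = 4.98e-09), 2.71 ± 0.21 in pNE_H, 1.71 ± 0.21 in aNE_T and 1.10 ± 0.21 in aNE_H, and fell by 4.78 ± 0.21 in aNE_M (adjusted p = 1.63e-09). AJUBA fell by 2.08 ± 0.08 and AMOTL2 by 1.28 ± 0.12 in aNE_M, where TEAD4 fell by 1.17 ± 0.11. TEAD4 also fell by 1.29 ± 0.11 in pNE_H. AMOTL2 rose by 1.27 ± 0.12 and WWTR1 by 1.10 ± 0.15 in aNE_T. The WWTR1 call was lost without aNE replicate 1 (0.96) or aNE_T replicate 2 (0.96), and the ANKRD1 call in aNE_H without aNE replicate 1 (0.96). Of the 10 genes, 4 were called in aNE_T (9.03% of all genes), 5 in aNE_M (12%), 2 in aNE_H (10.1%), 1 in pNE_T (10.2%), 1 in pNE_M (12.7%) and 3 in pNE_H (12.3%), in all 16 of 60 values against 11.1% over all genes. The 3 comparisons of a lineage share its day-2 libraries.

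A list of 19 other genes known as YAP and TAZ targets was set beside the 10 genes, and 18 were tested. The matricellular proteins CCN1 and CCN2 are its usual readouts. CCN1 averaged 24.3 TPM in hPSC, 147 and 73.8 TPM in aNE and pNE, and at day 4 288, 7.53 and 79.4 TPM in aNE_T, aNE_M and aNE_H and 190.4, 27.8 and 24.9 TPM in pNE_T, pNE_M and pNE_H. CCN2 averaged 21.5, 161 and 125 TPM in the first 3 groups, 218, 18.8 and 156 TPM in the aNE-derived groups and 410.4, 73.5 and 74.9 TPM in the pNE-derived groups. Both were highest in a forebrain-medium group, as ANKRD1 was, and both lay lower in aNE_M than in any other neural ectoderm group.

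Against hPSC, 10 of the 18 listed genes were called higher in aNE (13.5% of all genes were called) and 11 in pNE (12.9%). In both, 0 were called lower, and the median differences were 1.19 and 1.25 against 0.06 and 0.05 over all tested genes. NUAK2, a kinase gene, rose most in aNE, by 3.14 ± 0.15 (limma adjusted p = 4.77e-09), and IGFBP3, which encodes a binding protein of insulin-like growth factors, rose most in pNE, by 2.64 ± 0.11 (adjusted p = 1.67e-09). CCN2 rose by 2.84 ± 0.10 and 2.48 ± 0.10 and CCN1 by 2.55 ± 0.14 and 1.56 ± 0.14. The smallest called rises were those of AXL, a receptor kinase gene, in aNE (1.01 ± 0.10) and of CRIM1 in pNE (1.06 ± 0.17).

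In aNE-derived cells 10 of the 18 were called lower and 1 higher in midbrain against forebrain medium (10.1% of all genes called). The median was -1.21 against -0.04 over all genes. IGFBP3 fell by 8.14 ± 0.11 (limma adjusted p = 6.81e-14), from 757 to 1.69 TPM, CCN1 by 5.09 ± 0.14 (adjusted p = 2.37e-11) and CCN2 by 3.47 ± 0.10 (adjusted p = 3.39e-11). The gene called higher was CCDC80, which encodes an extracellular matrix protein and rose by 1.88 ± 0.13 (adjusted p = 1.73e-07). In pNE-derived cells 6 were called lower and 2 higher in midbrain against forebrain medium (8.6%). In hindbrain against forebrain medium 8 were called lower and 0 higher there (5.03%). IGFBP3 fell most in both, by 4.03 ± 0.11 and 3.24 ± 0.11, while CCDC80 rose by 2.07 ± 0.13 in the first. In aNE-derived cells 4 were called lower and 0 higher in hindbrain against forebrain medium (6.6%). CCN1 fell by 1.84 ± 0.14 there, while CCN2 differed by -0.48 ± 0.10 (adjusted p = 0.00338).

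Between the lineages, 2 of the 18 listed genes were called higher and 1 lower in pNE at day 2 (3.85% of all genes called). At day 4, 2 were called higher and 2 lower in forebrain medium (7.77%), and 5 higher and 1 lower in midbrain medium (5.74%). In hindbrain medium 0 were called higher and 5 lower (6.83%). CCN1 was 1.77 ± 0.14 higher in pNE_M than in aNE_M (limma adjusted p = 1.17e-06) and fell by 1.66 ± 0.14 in pNE_H against aNE_H (adjusted p = 1.79e-06). CCN2 was 1.91 ± 0.10 higher in the first (adjusted p = 2.55e-08) and fell by 1.06 ± 0.10 in the second (adjusted p = 5.42e-06). In midbrain and hindbrain medium these signs are those of AMOTL2. In forebrain medium, where AMOTL2 was lower in pNE_T, CCN1 was also lower (190.4 against 288 TPM) but CCN2 was higher (410.4 against 218 TPM). Neither CCN1 nor CCN2 was called there. MYOF, the gene of the membrane protein myoferlin, was 3.27 ± 0.16 higher in pNE_T and 3.69 ± 0.16 higher in pNE_M, while FJX1, a Golgi kinase gene, differed by -3.32 ± 0.10, -1.09 ± 0.10 and -1.99 ± 0.10 in the 3 media. The core occurred in the windows of 6 of the 13 listed genes that have one (46.2%), against 16.7% of all genes with a window.

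**Figure D5:**
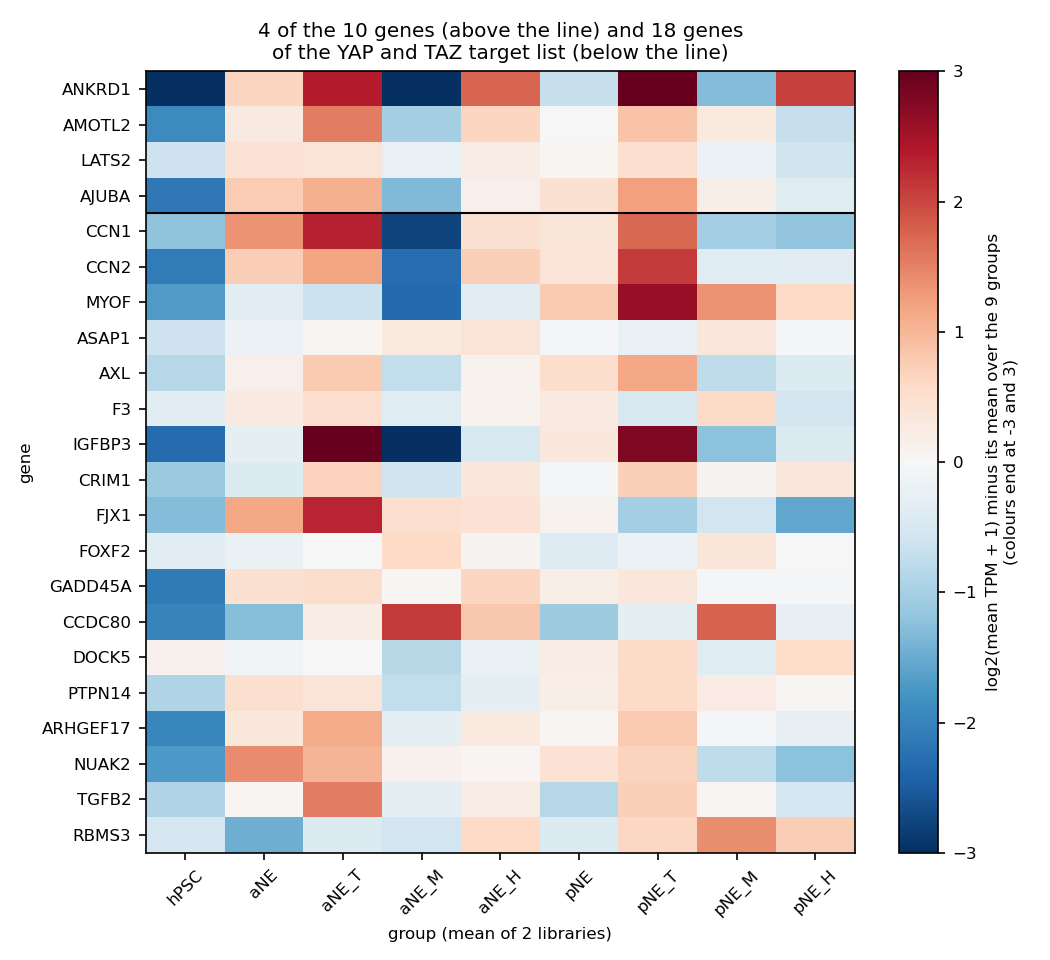
Colour gives the log2 of the group mean TPM + 1 of each gene minus its mean over the 9 groups, for ANKRD1, AMOTL2, LATS2 and AJUBA above the line and 18 listed YAP and TAZ target genes below it. ANKRD1, CCN1, CCN2 and IGFBP3 are low in aNE_M and high in aNE_T and pNE_T, whereas CCDC80 is high in aNE_M and pNE_M.

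Kinases and scaffolds upstream of YAP formed a list of their own. All of its 18 genes were tested, and PTPN14 is shared with the target list. In aNE against hPSC 2 were called higher and 1 lower (13.5% of all genes called), and in pNE 1 higher and 0 lower (12.9%). Between pNE and aNE at day 2, 0 were called by limma (3.85%). LATS1, the partner kinase of LATS2, averaged between 8.39 TPM in hPSC and 12.2 TPM in aNE_M. In midbrain against forebrain medium 3 of the 18 were called lower and 0 higher in aNE-derived cells, against 10.1% of all genes. The largest fall was that of FRMD6, a FERM-domain gene, by 1.71 ± 0.11 (limma adjusted p = 6.91e-08). In pNE_H against aNE_H 2 of the 18, FAT4 and DCHS1, were called higher and 0 lower, against 6.83% of all genes. FAT4, an atypical cadherin gene, was 1.34 ± 0.19 higher in pNE_H (adjusted p = 0.000213), at 3.52 against 0.791 TPM.

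AMOTL1, the closest relative of AMOTL2 on the list of 4 other angiomotin and AJUBA family genes, had the opposite sign to AMOTL2 in all 4 comparisons with forebrain medium. It rose by 2.16 ± 0.12 in aNE_M (limma adjusted p = 1.69e-08) and by 2.13 ± 0.12 in aNE_H (adjusted p = 7.55e-08) over aNE_T, from 30.6 TPM to 141 and 137 TPM. It rose by 1.64 ± 0.12 in pNE_M and 1.02 ± 0.12 in pNE_H over pNE_T. Between pNE_H and pNE_M the signs were the same, with AMOTL1 at -0.62 ± 0.12 and AMOTL2 at -0.96 ± 0.12, neither called. WTIP, an AJUBA family gene, fell by 1.31 ± 0.16 in aNE_M (adjusted p = 3.06e-05). AMOT and WTIP both rose in aNE and in pNE against hPSC, AMOT by 1.62 ± 0.13 and 1.76 ± 0.13.

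Of the 4 vestigial-like genes, whose products also bind TEAD factors, VGLL3 and VGLL4 were tested. VGLL3 rose by 1.45 ± 0.28 in aNE against hPSC (limma adjusted p = 0.00118) and fell by 1.09 ± 0.28 in aNE_M against aNE_T (adjusted p = 0.00963). Of 14 polarity and junction genes, 2 were called higher and 2 lower in aNE against hPSC (13.5% of all genes called). N-cadherin, CDH2, was up by 2.88 ± 0.10 and E-cadherin, CDH1, down (-1.35 ± 0.23). In pNE 3 were called higher and 1 lower (12.9%). Between media 1 to 3 of the 14 were called in each of the 6 comparisons (4.92% to 10.1% of all genes), for example TJP1, a tight junction scaffold gene, which fell by 1.02 ± 0.10 in aNE_M against aNE_T (adjusted p = 4.2e-06).

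Genes whose levels ran most like the 3 widest-ranging of the 10 over the 18 libraries were found by Pearson r on the log2(TPM + 1) scale, as a description over libraries that share groups and media. The nearest to AMOTL2 were WTIP (r = 0.971) and SYDE1 (r = 0.965). The nearest to ANKRD1 were MYL9, the gene of a myosin regulatory light chain (r = 0.948), and DDR2, a collagen receptor gene (r = 0.948). MYL9 averaged 963 TPM in aNE_T, 95.7 TPM in aNE_M and 57.3 TPM in hPSC. The nearest to AJUBA were the protease gene PRSS23 (r = 0.969) and ENTPD4 (r = 0.966). Among the 10 genes AMOTL2 and AJUBA had r = 0.928 and WWTR1 and ANKRD1 r = 0.678, while YAP1 and ANKRD1 had r = 0.200 and YAP1 and TEAD4 r = -0.694.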

How the data were processed

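Poly-A RNA was sequenced from 18 H1 libraries, 2 in each of 9 groups. The authors deposited 1 table of TPM, with a row per gene and a column per library. Per the submitters' processing notes, bcl2fastq, FastQC, Trim Galore, kallisto and deepTools were used with the hg38 build; their versions and roles are not given in the sources used here. Values at 0 are read as listed at 0.

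Levels were analysed as log2(TPM + 1), with a pseudocount of 1 that understates changes of low genes, for the 17033 genes that reached 1 TPM in 2 or more libraries. The limma package (version 3.58.1, R 4.3.3) fitted a mean for each of the 9 groups (9 residual degrees of freedom over 18 libraries), with a variance trend. In each of 21 contrasts, two-sided p-values received Benjamini-Hochberg adjustment over all tested genes. Calls required adjusted p below 0.05 together with a log2 difference of 1 or more in either direction. The script was tested on simulated data. Groups were taken from sample titles and treatment labels.

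The text names all 10 genes, the 2 genes most correlated with each of them whose group means span at least 2 on the log2 scale, CCN1 and CCN2, and from each list the called genes at the ends of the range of a comparison; AMOT, WTIP, MIXL1, EOMES, PAX3, LATS1 and the other listed genes named were chosen after their values were seen. The 10 genes and the lists were chosen with earlier results of these data known. Symbols were matched to RefSeq (GRCh38.p14) for positions and promoter windows, in which GGAATG was searched on both strands. Alternatives were another pseudocount (0.1), no filter and a filter at 5 TPM, 2 scalings, a fit of only the compared libraries, no variance trend, calls by adjusted p alone, a replicate block and leaving out each library.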

Additional observations from a re-analysis of the deposited data

Results flagged for a closer look

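In 7 cases the difference between pNE-derived and aNE-derived cells at day 4 departed from the pNE minus aNE difference at day 2, by limma's test of the interaction with both thresholds passed. Density, medium and time change together in each, so they cannot be told apart. ANKRD1 gave 2.91 ± 0.29 (SE, log2 scale, adjusted p = 1.83e-05) in forebrain medium, 4.17 ± 0.29 (adjusted p = 7.56e-07) in midbrain medium and 1.61 ± 0.29 (adjusted p = 0.0021) in hindbrain medium. These share the day-2 libraries, in which ANKRD1 was lower in pNE. AJUBA gave 1.80 ± 0.11 (adjusted p = 1.79e-07) in midbrain medium. AMOTL2 gave 1.56 ± 0.17 (adjusted p = 3e-05) in midbrain and -1.05 ± 0.17 (adjusted p = 0.000763) in hindbrain medium, and TEAD4 gave -1.04 ± 0.15 (adjusted p = 0.000434) in hindbrain medium. Under quantile normalization AMOTL2 and TEAD4 in hindbrain medium fell below the fold threshold, and under median-ratio scaling TEAD4 did. Each was also lost when any of 3 single libraries was left out, aNE_H replicate 1 and pNE replicate 2 for both, aNE replicate 2 for TEAD4 and pNE_H replicate 1 for AMOTL2.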

How the results depend on the processing

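Of the 59 called differences of the 10 genes, 48 kept their call and direction in every alternative run, and 0 of the 59 reversed. Of 68 uncalled differences (those of at least 0.5 or given in the text), 8 passed both thresholds in some alternative, each time with 1 library left out. The 10 calls against hPSC became 6 under median-ratio scaling and 6 under quantile normalization. The single call between pNE and aNE at day 2 became 0 in a limma fit of only the libraries compared, where ANKRD1 had an adjusted p of 0.0509 and 355 genes in place of 655 were called. By adjusted p alone the counts were 17 against hPSC, 5 between pNE and aNE at day 2, 20 between the lineages at day 4, 48 between media and 46 between days, with 40%, 13.6%, 19.9%, 23.4% and 33.9% of all genes called. Leaving out 1 library at a time, the counts ranged from 8 to 10, 1 to 1, 5 to 6, 5 to 7 for the interactions, 19 to 22 for media and 14 to 17 for days. ANKRD1 in pNE_H minus aNE_H, not called at 0.26, was -0.13 (adjusted p = 0.72) without pNE_H replicate 2 and 0.64 without pNE_H replicate 1. Near 0, the difference for YAP1, pNE minus hPSC, was -0.066 under median-ratio scaling and -0.00744 to 0.036 with 1 library left out, and TEAD3 in pNE minus aNE was -0.16 to 0.12 with 1 library left out.

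With the replicate number as a block, the counts were 10, 1, 5, 7, 20 and 16, as without it. Deviations of same-numbered libraries correlated between groups with r of -0.09 to 0.08 over 36 pairs of groups, so no broad shared effect of the numbers was seen. An effect on few genes, or different in each group, would not show in these values. The largest shift of the median of all genes by a scaling was 0.0817. With 2 libraries per group and no read depth, differences near the fold threshold are the least certain.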
